A study of Mus musculus with 6 samples.

Results

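The genes described here mark the tubule segments of the nephron, and all 37 were found by symbol among the 48587 gene rows of the deposited count table. They comprise 24 genes of the proximal tubule, 7 of the thick ascending limb and 6 of the distal convoluted and connecting tubules. The measurement was RNA bound to HA-tagged ribosomes of neonatal mouse kidney, in 3 control and 3 Foxp1-deficient libraries, each precipitated with anti-HA beads from kidney homogenate. All animals carried Cdh16-Cre and RiboTag, which tags a ribosomal protein in cells with Cre. Cre was driven by the kidney cadherin gene Cdh16. Controls were Foxp1fl/+ littermates and thus also carried a floxed Foxp1 allele, and the Foxp1-deficient animals were Foxp1fl/fl. The treatment label of the Foxp1-deficient libraries is chronic acid load and that of the controls is vehicle, while the protocols give no acid load, so by the labels genotype and treatment cannot be told apart. No label says whether libraries of one group came from separate animals, and p-values measure only how far these libraries spread, which may be of technical origin.

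The proximal tubule takes back most of the filtered glucose, phosphate, amino acids and protein, and secretes organic anions. The thick ascending limb takes up salt without water and secretes uromodulin, and the distal convoluted and connecting tubules adjust salt, calcium and magnesium. Many of these steps have a transporter of their own, so the transporter genes serve as markers of their segments. At birth the mouse kidney still forms nephrons.

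The labelled cell type, kidney tubular cells, was not borne out evenly by these markers. Both libraries numbered 3 (control 3 and Foxp1-deficient 3, the pair numbered 3) had counts for all 37 genes, whereas 19 were at 0 in control 1, 21 in control 2, 8 in Foxp1-deficient 1 and 22 in Foxp1-deficient 2. Total counts ran from 9710048 to 18958196, and the libraries numbered 3 were the deepest. They also had the most genes with a count, 21684 and 22190, against 13885 to 18876 in the others. A count of 0 allows up to 3 counts, or 0.178 to 0.309 CPM (counts scaled to a library total of 1000000) in the libraries with such zeros, for counting error only. In ribosome-bound RNA pooled over cells, fewer cells of a type, less RNA per cell and a poorer precipitation cannot be told apart. Nor can RNA carried along from untagged cells, as input libraries were not analysed.

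As a sum, the 37 genes took 1496 CPM in control 3 and 1668 CPM in Foxp1-deficient 3, or 0.15% and 0.167% of all counts. In the other 4 libraries the sum lay between 93.48 CPM (control 1) and 153.2 CPM (Foxp1-deficient 2). The lower of the libraries numbered 3 was thus 9.76-fold above the highest of the others. Markers of some other cells shared this order by a smaller margin. The 8 stromal markers summed to 15170 and 15570 CPM in the pair numbered 3 and to 2576 to 9975 CPM in the others, a margin of 1.52-fold, and 3 of the 8 were highest in both libraries numbered 3. The 5 macrophage markers summed to 931.8 and 450.9 CPM, against 46.61 to 285.3 CPM. Mesothelial markers (5 genes, 1737 to 3973 CPM) and smooth muscle markers (4 genes, 5532 to 16970 CPM) did not share it, with 1 and 0 genes highest in both. The part of these cells in the tubule gene levels was not tested.

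**Figure D1:**
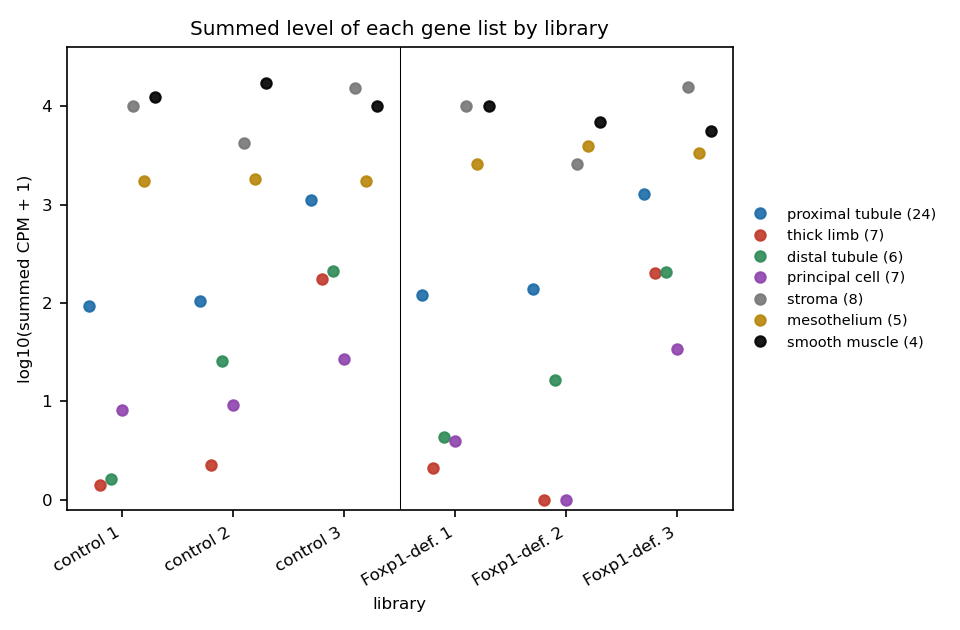
Summed level of each gene list in each library, on a log10(summed CPM + 1) axis, with the number of genes in brackets and points set side by side for legibility. Proximal tubule genes stood at 1110 and 1265 CPM in the pair numbered 3 and at 92.43 to 137.9 CPM elsewhere, while mesothelial and smooth muscle sums showed no such split.

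Of the 37 genes, 36 had a higher CPM in both libraries numbered 3 than in each of the other 4. The same held for 21.4% of all genes with a count and for 21.0% of the 14311 genes that passed the low-count filter of the genotype test. The libraries numbered 3 were known to hold tubule transcripts when these genes were chosen, so the count is a description. The margin was at least 2-fold for 33 genes. Without Foxp1-deficient 2 all 37 had this order. The exception to the order was Pvalb, encoding the calcium buffer parvalbumin, with 1.37 and 1.21 CPM in the pair numbered 3 and 1.65 CPM in Foxp1-deficient 2. The margin was under 2-fold for Slc22a6, Slc7a7 and Lrp2, named after their values were seen.

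**Figure D2:**
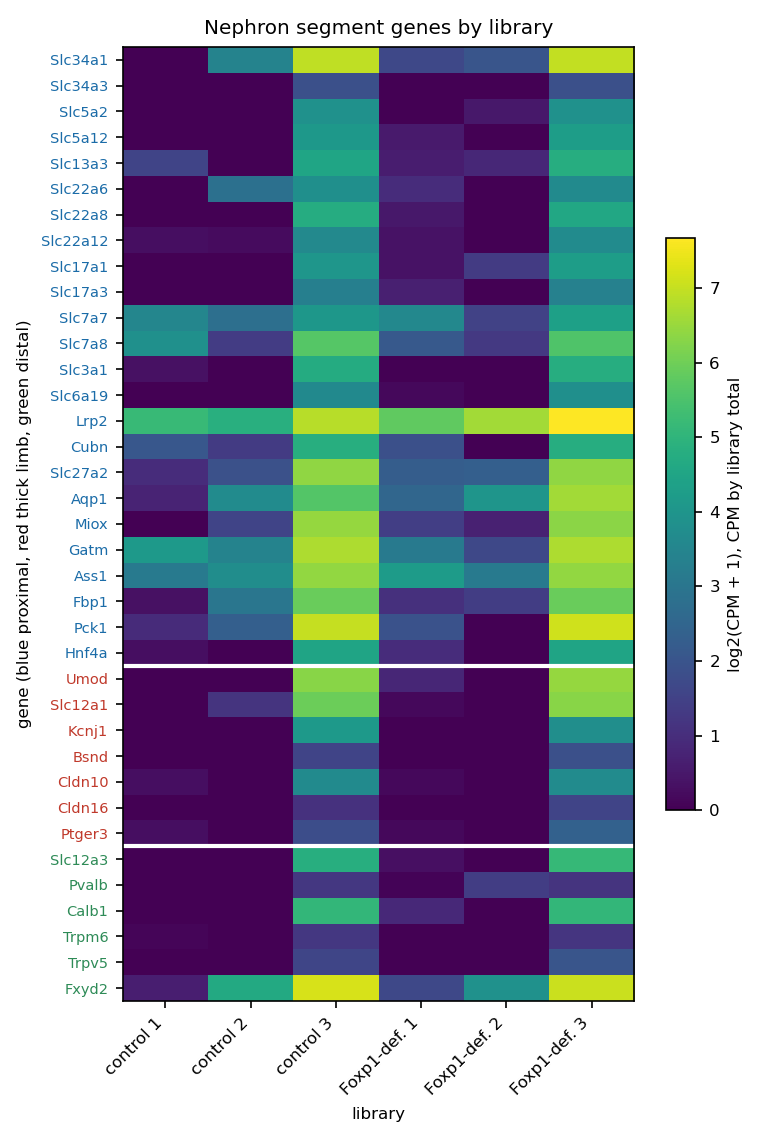
Level of each of the 37 genes (rows, ordered by segment and role) in each library (columns), as log2(CPM + 1). The columns of control 3 and Foxp1-deficient 3 are filled in every row, and the 4 other columns are dark for most thick limb and distal genes.

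Phosphate and glucose transport in the proximal tubule was represented by 3 genes. Slc34a1 (chromosome 13, 55399648 to 55414695, mm10), encoding the main brush border sodium-phosphate cotransporter, had 0, 9.68 and 121 CPM among controls 1, 2 and 3 and 2.2, 3.09 and 125 CPM in the Foxp1fl/fl libraries 1, 2 and 3. Its relative Slc34a3 was low, with 2.69 CPM in both libraries numbered 3 and no count in the other 4, which makes it at least 46.7-fold higher there than the floor of 3 counts over those 4 libraries (0.0576 CPM). Slc5a2, encoding SGLT2, the main glucose cotransporter of the early proximal tubule, had 13.6 CPM in both libraries numbered 3, 4 counts in Foxp1-deficient 2 and 0 counts in the other 3. All 3 genes thus separated the libraries numbered 3 from the rest in both genotypes.

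Genes for other apical and basolateral carriers of the proximal tubule were also counted mainly in the pair numbered 3. Slc5a12, a lactate cotransporter gene, had 15.9 and 18.4 CPM in control 3 and Foxp1-deficient 3, and Slc13a3, a dicarboxylate carrier gene, had 21.6 and 26.6 CPM. Neither exceeded 1.96 CPM elsewhere. The organic anion transporter genes Slc22a6 (OAT1) and Slc22a8 (OAT3) had 13.1 and 11.8 CPM, and 25.8 and 23.1 CPM, in the same order. Slc22a6 also reached 6.13 CPM in control 2, from 69 counts, whereas Slc22a8 was at 0 in that library. Slc22a12, encoding the urate exchanger URAT1, had 11.2 and 12.0 CPM in the pair numbered 3, and the phosphate and urate transporter genes Slc17a1 and Slc17a3 had 15.5 and 18.2, and 9.01 and 9.34 CPM. None of these last 3 genes passed 1.54 CPM elsewhere.

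Amino acid transporters divided into 2 kinds. Slc3a1, encoding the rBAT subunit of the cystine transporter, had 25.1 and 26.2 CPM in the pair numbered 3 and 4 counts in all in the others, and Slc6a19, encoding the neutral amino acid transporter B0AT1, had 11.6 and 13.2 CPM there and 2 counts elsewhere. The basolateral light chains Slc7a7 and Slc7a8 were counted in all 6 libraries. Slc7a7 had 10.5, 6.04 and 15.6 CPM among controls 1, 2 and 3 and 10.9, 1.85 and 19.4 CPM in the Foxp1fl/fl libraries. Slc7a8 had 13.4, 1.6 and 49.4 CPM, and 3.39, 1.44 and 46.1 CPM. For both light chains the libraries numbered 2 were the lowest in each genotype.

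The promoters of Slc3a1 and of the distal salt cotransporter gene Slc12a3, whose values follow, are shown. Among the genes with a searched motif, only these had a match before the gene start in both RefSeq and the deposited annotation. Both genes were counted almost only in the pair numbered 3. The sequences are from RefSeq (GRCm38.p6), 5′ to 3′ on the gene's strand, and end just before the start of the gene in RefSeq or in the deposited annotation, whichever comes first. Capitals mark CAAAGTCCA, an element bound by the nuclear receptor HNF4, and TATAAA, the TATA box, on either strand.
Slc3a1, chr17:85028097-85028346, plus strand: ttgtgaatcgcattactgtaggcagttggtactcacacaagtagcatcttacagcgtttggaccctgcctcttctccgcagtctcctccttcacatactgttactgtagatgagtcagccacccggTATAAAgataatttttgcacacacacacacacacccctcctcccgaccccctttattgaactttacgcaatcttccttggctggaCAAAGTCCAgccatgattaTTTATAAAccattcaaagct
Slc12a3, chr8:94328958-94329200, plus strand: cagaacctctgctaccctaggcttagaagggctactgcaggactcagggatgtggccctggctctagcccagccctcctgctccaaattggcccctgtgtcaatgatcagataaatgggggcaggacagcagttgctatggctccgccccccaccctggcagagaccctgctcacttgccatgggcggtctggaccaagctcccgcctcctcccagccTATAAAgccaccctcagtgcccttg

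In Slc3a1 the HNF4 element began 39 bases before the RefSeq start, and TATAAA matched at 124, 20 and 18 bases, the last 2 overlapping on opposite strands. In Slc12a3 TATAAA began 32 bases before the start. Promoter entries of 32 of the 37 genes were used here. In the 250 bases before the start, CAAAGTCCA on either strand was in 1 of the 32 (Slc3a1) and in 0.451% of all 27025 genes with an entry. TATAAA was in 4 of the 32 (12.5%), namely Slc3a1, Miox, Slc12a3 and Trpv5, and in 14.3% of all genes. The motifs were chosen after such counts were seen, and a match is a description of the letters, not of a bound site.

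The endocytic receptor genes differed in where they were counted. Lrp2 (chromosome 2, 69424340 to 69586065), encoding megalin, had 34.9, 27.4 and 115 CPM in the controls and 55.2, 97.4 and 203 CPM in the Foxp1fl/fl libraries. Its partner Cubn, encoding cubilin, had 3.22, 1.51 and 26.9 CPM and 2.68, 0 and 26.5 CPM. Foxp1-deficient 2 thus had 946 counts of megalin and none of cubilin. The water channel gene Aqp1 (chromosome 6, 55336432 to 55348555), also expressed by endothelium and mesothelium, had 0.7, 12.0 and 48.0 CPM in the controls and 4.76, 14.9 and 97.1 CPM in the Foxp1fl/fl libraries. Slc27a2, a fatty acid transport and activation gene, had 83.5 and 84.0 CPM in the pair numbered 3 and 0.98 to 4.02 CPM in the others.

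Metabolic enzymes gave the largest sum of the 8 proximal groups in the libraries numbered 3, with 464.3 and 468.0 CPM over 5 genes, and 12.36 to 35.42 CPM elsewhere. Pck1, encoding the gluconeogenic enzyme PEPCK, had 0.91, 3.99 and 128 CPM in the controls and 2.79, 0 and 138 CPM in the Foxp1fl/fl libraries. Miox, encoding inositol oxygenase, had 0, 1.95 and 87.5 CPM, and 1.66, 0.618 and 80.2 CPM. Fbp1, encoding fructose-bisphosphatase, had 59.2 and 59.0 CPM in the pair numbered 3 and at most 7.1 CPM elsewhere. Gatm, the creatine synthesis gene, and Ass1, of arginine synthesis, were counted throughout, Gatm at 2.16 to 16.9 CPM and Ass1 at 7.93 to 17.4 CPM outside the libraries numbered 3. In the libraries numbered 3 they stood at 104 and 106 CPM, and at 86 and 85.1 CPM. Pck1, Fbp1 and Ass1 are also hepatocyte genes, and the 6 hepatocyte markers summed to 35.43 and 32.07 CPM in the pair numbered 3 and to 52.87 to 281.1 CPM in the others. Alb and Apoa1 made up most of that sum in the others. Serpina1a of the same list was highest in the pair numbered 3 (6.1 and 5.64 CPM against at most 2.45 CPM), and the part of hepatocyte RNA was not tested.

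Hnf4a, the nuclear receptor gene that drives proximal tubule maturation, had 0.21, 0 and 21.5 CPM in the controls and 0.951, 0 and 21.3 CPM in the Foxp1fl/fl libraries. Its level was thus nearly equal in the libraries numbered 3, and no other library had more than 16 counts.

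Thick limb genes gave the sharpest separation by sum, with 173.1 and 198.8 CPM in the pair numbered 3 and 0 to 1.243 CPM in the others, a 139-fold margin for the lower against the highest. Umod (chromosome 7, 119462711 to 119479282), encoding uromodulin, had 13 counts in Foxp1-deficient 1 and none in the other 3 of those 4 libraries, against 1437 and 1652 counts in control 3 and Foxp1-deficient 3. Slc12a1, encoding the cotransporter NKCC2 that loop diuretics block, had 60.4 and 77.9 CPM in the pair numbered 3, 1.24 CPM in control 2, 0.119 CPM in Foxp1-deficient 1 and 0 in the other 2. Kcnj1, encoding the potassium channel ROMK, had 16.4 and 12.8 CPM there and no count elsewhere, at least 222-fold higher than the floor over the 4 libraries. The chloride channel subunit gene Bsnd (1.98 and 2.64 CPM) and the paracellular magnesium gene Cldn16 (1.15 and 2.0 CPM) also had no count outside the libraries numbered 3. Cldn10, a claudin gene of the sodium pathway, had 11.8 and 12.0 CPM, and Ptger3, a prostaglandin E2 receptor gene, 2.53 and 4.22 CPM, with 5 counts each in the 4 other libraries together.

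Distal genes split into Fxyd2 and the rest. Fxyd2, encoding the gamma subunit of the sodium pump and expressed along much of the tubule, had 0.56, 24.5 and 148 CPM in the controls and 2.2, 13.7 and 131 CPM in the Foxp1fl/fl libraries. Without Fxyd2 the distal sum was 64.7 and 72.9 CPM in the pair numbered 3 and at most 1.648 CPM in the others. Slc12a3 (chromosome 8, 94329201 to 94366214), encoding the thiazide-sensitive cotransporter NCC, had 27.3 and 34.6 CPM in the pair numbered 3, with 4 counts in Foxp1-deficient 1 and 0 in the other 3 libraries. Calb1, encoding calbindin, had 32.6 and 32.8 CPM, with 14 counts in Foxp1-deficient 1 alone among the others. The channel genes Trpv5 (calcium) and Trpm6 (magnesium) were low throughout, with 2.03 and 3.06 CPM, and 1.37 and 1.27 CPM, and 0 and 1 counts in the other 4 libraries together. Distal transcripts were thus detected in the same pair of libraries as those of the other segments.

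Levels between genes are compared per length, as TPM (counts divided by the deposited gene length and scaled to a total of 1000000). Fxyd2 led in both libraries numbered 3, with 529 and 518 TPM, from a gene of 632 exonic bases. Miox followed with 120 and 121 TPM, then Slc34a1 with 88.6 and 101 TPM and Pck1 with 84.1 and 100.0 TPM. Umod was the highest thick limb gene, at 64.6 and 78.8 TPM, and Calb1 second to Fxyd2 among distal genes, at 15.2 and 16.9 TPM. Trpm6 was lowest, at 0.477 and 0.486 TPM. The same 10 genes made the top 10 in both libraries, and 24 of 37 genes moved by at most 1 rank between them. The largest move was that of Kcnj1, rank 18 in control 3 and 25 in Foxp1-deficient 3, between values of 11.3 and 9.81 TPM. Megalin and cubilin, which form 1 receptor complex, stood at 15.5 and 4.06 TPM in control 3 and at 30.4 and 4.44 TPM in Foxp1-deficient 3.

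Since each genotype had 1 library numbered 3, the ratio between them has no replicate check, and its interval covers counting error only (95%, exact binomial). Of the 37 genes, 1 was past 2-fold in either direction, against 9.90% of the 16053 genes with at least 10 counts in either library. Past 1.5-fold were 5 genes, all higher in Foxp1-deficient 3, against 20.4% of all such genes (2032 higher and 1242 lower). The interval left out equal levels for 12 genes, 9 higher and 3 lower in Foxp1-deficient 3. Over all such genes this share was 46.2% (4037 higher and 3378 lower). The median ratio of Foxp1-deficient 3 to control 3 was 1.03 for the 37 genes and 1.02 for all genes. The other 32 tubule genes were within 1.5-fold of equal levels in these libraries, with median counts per gene of 449 for the 37 and 337.5 for all genes.

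Aqp1 was the gene past 2-fold, with a ratio of 2.02 (1.87 to 2.2), or 1.99 when scaled by TMM, a normalization that sets the bulk of genes equal. Lrp2 had a ratio of 1.77 (1.68 to 1.87). Pck1, the other proximal gene of highest CPM, had 1.08 (1.02 to 1.14), and Hnf4a 0.99 (0.859 to 1.14). In the thick limb, Umod had a ratio of 1.1 (1.03 to 1.19) and Slc12a1 of 1.29 (1.19 to 1.4). Kcnj1 of the same segment went the other way, with 0.783 (0.658 to 0.931). In the distal tubule, Fxyd2 had 0.884 (0.837 to 0.934), Calb1 1.0 (0.896 to 1.13) and Slc12a3 1.27 (1.13 to 1.43). The other genes past 1.5-fold were low: Ptger3 with 1.67 (1.15 to 2.46), Cldn16 with 1.74 (0.994 to 3.12) and Trpv5 with 1.51 (0.98 to 2.34), the last 2 with intervals that include equal levels. Slc12a3, Kcnj1, Hnf4a, Ptger3, Cldn16 and Trpv5 were named after their values were seen.

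**Figure D3:**
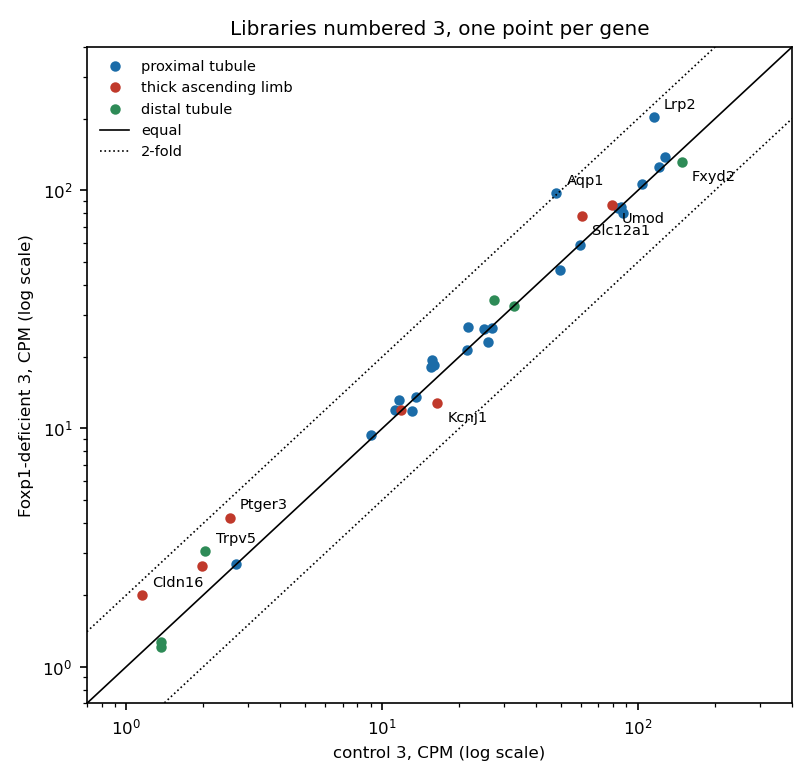
CPM in Foxp1-deficient 3 against CPM in control 3 for the 37 genes, both on log axes, coloured by segment, with lines for equal levels and for 2-fold differences. Aqp1 (48.0 and 97.1 CPM) and Lrp2 (115 and 203 CPM) stand apart from the line of equal levels among abundant genes.

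By segment, the median ratio was 1.03 for proximal, 1.29 for thick limb and 0.963 for distal genes. Markers of other cells differed between the same libraries. All 5 mesothelial markers were past 1.5-fold and higher in Foxp1-deficient 3 (median ratio 1.85), and all 4 smooth muscle markers past 1.5-fold and lower (median 0.509). Macrophage markers had a median of 0.575 and endothelial markers of 0.746, with 3 of 5 and 4 of 6 genes past 1.5-fold. Aqp1 is shared by mesothelium and endothelium, whose medians lay on opposite sides of 1, and their part in its ratio was not tested.

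**Figure D4:**
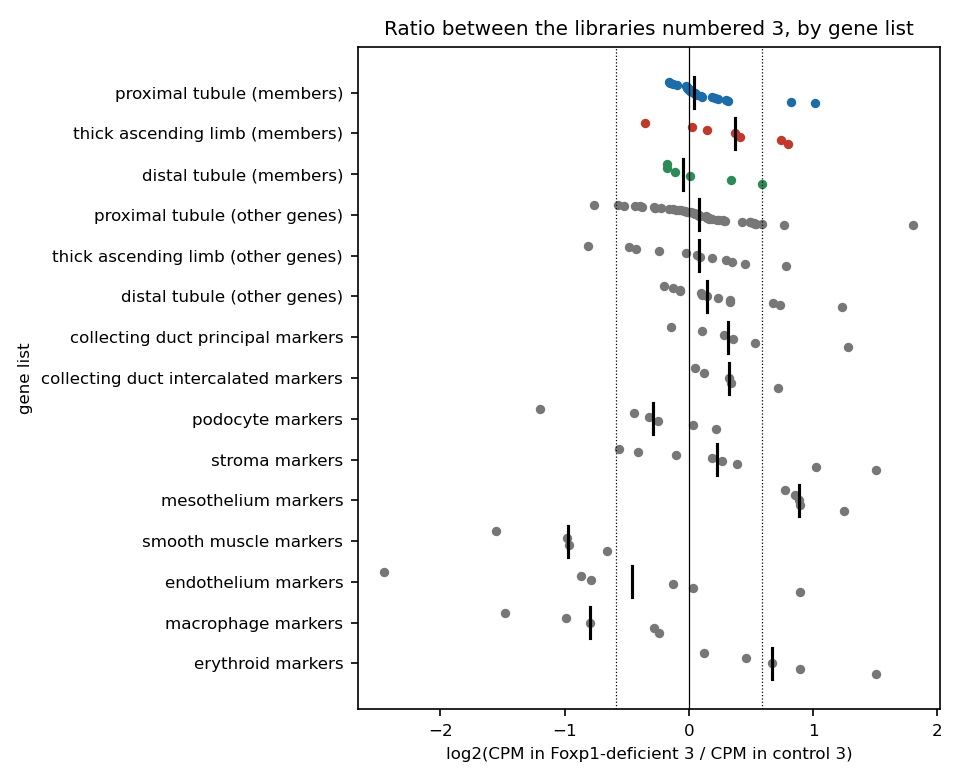
Log2 ratio of CPM in Foxp1-deficient 3 to CPM in control 3, 1 point per gene with at least 10 counts in either library and a count in both, grouped by gene list, with a bar at the median and dotted lines at 1.5-fold. Tubule lists cluster near 0, and mesothelial and smooth muscle lists lie to either side.

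In the 4 libraries with other numbers, the few tubule counts were spread in different ways. Foxp1-deficient 1 had 1 to 9 counts for 11 of the 37 genes and 10 or more for 18, and control 1 had 8 and 10. Control 2 had 1 to 9 counts for 1 gene and 10 or more for 15, and Foxp1-deficient 2 had 3 and 12. In the libraries numbered 2 most of the 37 genes were thus either absent or present at 10 or more counts. The same split was not counted over all genes, so it is not shown to be particular to tubule genes. Slc34a1 with 109 counts and Slc5a2 with 0 in control 2 are an example from 1 segment. Libraries numbered 2 also had the fewest genes with a count over the whole table, 13885 and 14285.

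Between genotypes, no tubule gene passed the test. Of the 37 genes, 21 passed the low-count filter and could be tested, and 0 were called by edgeR's quasi-likelihood test (adjusted p under 0.05), against 0% of all 14311 genes. The 16 left out had counts almost only in the libraries numbered 3, 1 of each genotype. Among the 21, 12 had log2 fold changes above 0 and 9 below, with a median of 0.02 against 0.03 for all genes tested. With no low-count filter all 37 could be fitted, 23 with values above 0 and 14 below, and 0 were called. Upper-quartile scaling of the 21 gave 9 above and 12 below 0, and limma-voom 17 and 4. Not overlapping between groups in TMM-scaled CPM were 0 of the 21, against 4.75% of all genes tested. By CPM, 20 of the 21 were highest in both libraries numbered 3, 1 of each genotype. Groups in that order overlap, so the 0 was largely fixed in advance and says nothing of genotype. At an unadjusted p under 0.05 stood 0 of the 21 and 103 of all genes, or 2 of the 21 and 762 of all genes with the replicate number as a block, where 0 were called too, and DESeq2 and limma-voom also called 0 of the 21. Foxp1 itself had 51.4, 26.0 and 40.5 CPM in the controls and 36.3, 9.17 and 33.7 CPM in the Foxp1fl/fl libraries, groups that overlap (log2 fold change -0.62, SE 0.49, adjusted p = 0.9998, edgeR quasi-likelihood test). In 3 of 3 numbered pairs the Foxp1fl/fl library had the lower level, and with the replicate block the log2 fold change was -0.72 (SE 0.28, edgeR quasi-likelihood test, adjusted p = 0.853, unadjusted p = 0.0496). A gene-level count does not resolve the floxed exons, so it does not check the genotype labels.

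Lrp2 had the lowest p of the 21, with 55.65 ± 39.63 CPM among controls and 116.5 ± 62.01 CPM in the Foxp1fl/fl libraries (SD, n = 3 each, TMM-scaled). This was a log2 fold change of 1.06 (SE 0.63), which did not pass over all genes (edgeR quasi-likelihood test, unadjusted p = 0.134, adjusted p = 0.9998). Within pairs of equal replicate number the Foxp1-deficient library had 1.58, 3.55 and 1.77 times the CPM of the control. With replicate number as a blocking term the value was 1.11 (SE 0.28, edgeR quasi-likelihood test, adjusted p = 0.853, unadjusted p = 0.0105). Megalin transcripts were thus higher in the Foxp1-deficient library of 3 of 3 pairs, without passing over all genes. The pairs were inferred from these data. The share of all genes that kept the same direction in 3 of 3 pairs was not counted, for Lrp2, Foxp1, Aqp1 or Slc7a8. Slc27a2 (ratios 3.88, 1.46 and 1.01) was also higher in 3 of 3 pairs, and Cubn lower in 3 of 3. Both were named after their values were seen. Markers of some other cells also lay to one side of 0, with 0 called. Of all genes tested, 7675 had values above 0 and 6636 below. All 5 mesothelial markers had log2 fold changes above 0 (median 0.96, summed level 1737 to 1819 CPM among controls and 2574 to 3973 CPM with Foxp1fl/fl). All 4 smooth muscle markers were below 0 (median -1.01, 9979 to 16970 CPM and 5532 to 9974 CPM), as were all 5 macrophage markers (median -1.20, 240.8 to 931.8 CPM and 46.61 to 450.9 CPM). Podocyte markers (6 of 6, median -0.46) and endothelial markers (5 of 6, median -1.11) were mostly or all below 0 too. Stromal markers (5 above, 3 below) and erythroid markers (3 above, 2 below) lay on both sides. The part of these other cells in the values of Lrp2 and Aqp1 was not tested.

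Aqp1 had 19.11 ± 21.33 CPM among controls and 35.76 ± 42.59 CPM in the Foxp1fl/fl libraries (SD, n = 3 each), a log2 fold change of 0.90 (SE 1.36, adjusted p = 0.9998, edgeR quasi-likelihood test). Its ratios within pairs were 6.79, 1.25 and 2.02, the first from 10 and 80 counts. The blocked fit gave 1.19 (SE 0.46, edgeR quasi-likelihood test, adjusted p = 0.853, unadjusted p = 0.0467), and without Foxp1-deficient 3 the unblocked value was -0.77. Pvalb, the third by p among genes with values above 0, had at most 25 counts in any library and a log2 fold change of 1.29 (SE 2.04), and its direction turned (-0.13) without the libraries numbered 2. In the other direction, Slc22a6 had a log2 fold change of -0.75 (SE 1.98), Slc7a8 of -0.37 (SE 1.35) and Gatm of -0.23 (SE 1.31), each with an adjusted p of 0.9998 in edgeR's test. The ratios of Foxp1-deficient to control in pairs 1, 2 and 3 were 0.252, 0.902 and 0.934 for Slc7a8, lower in 3 of 3 pairs, and 0.469, 0.221 and 1.02 for Gatm. The counting interval of the Slc7a8 ratio in pair 3, 0.85 to 1.03, included equal levels. Blocked log2 fold changes were -0.77 for Slc7a8, -0.95 for Gatm and 2.29 for Pvalb, each with an adjusted p of 0.853 in edgeR's quasi-likelihood test. The direction of the whole group moved with which library numbered 3 was kept, as their levels fix: without control 3 all 21 tested genes had values above 0 (median 2.77), and without Foxp1-deficient 3 only 2 of 21 did (median -2.97), with 0 called in either case. Without both libraries numbered 3, 15 genes could be tested, 5 with values above 0 and 10 below (median -0.64), and 0 were called. Without control 1 or control 2 the median over the 37 was -0.51 and -0.47, and without Foxp1-deficient 1 or 2 it was 0.59 both times.

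**Figure D5:**
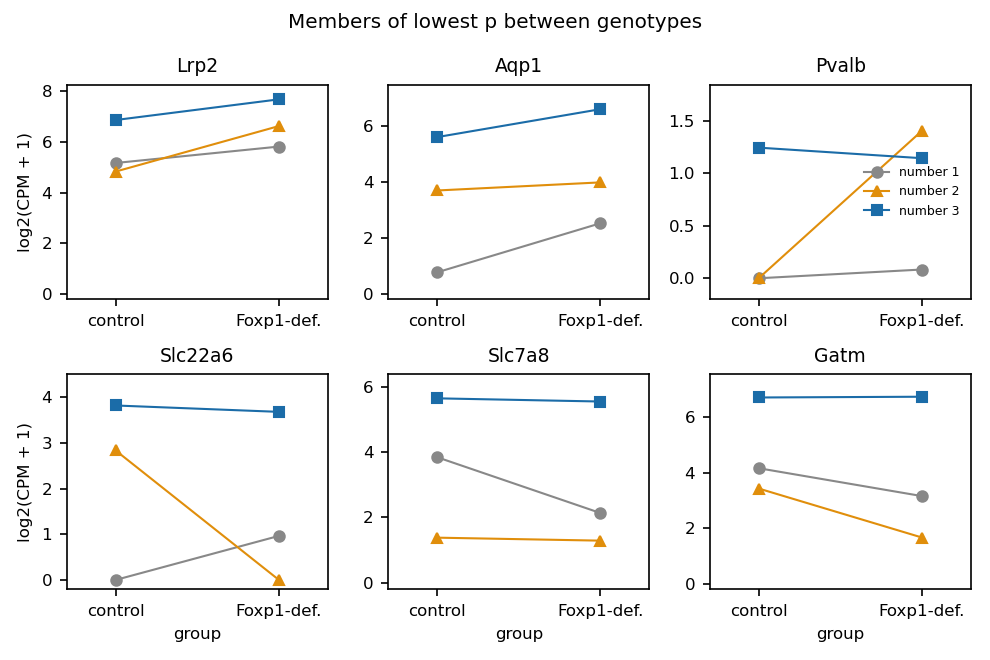
Level as log2(CPM + 1), by library total, of the 3 genes of lowest p in each direction between genotypes, with lines joining libraries of equal number. Lines of Lrp2 and Aqp1 run upward and those of Slc7a8 downward in all 3 pairs, and in 5 of the 6 panels the libraries numbered 3 (blue squares) lie above the others in both groups.

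Further genes of the same segments, listed apart from the 37, shared the order of libraries to differing degrees. Of 52 other proximal tubule genes, 42 were highest in both libraries numbered 3, as were 8 of 13 thick limb genes, 6 of 13 distal genes, 17 of 20 segment transcription factor genes and 6 of 10 epithelial genes. The same held for 21.4% of all genes with a count. By sum, the lower of the libraries numbered 3 was 4.08-fold the highest of the others for the proximal list. This ratio was 1.17 for the thick limb, 0.925 for the distal, 1.48 for the transcription factor and 0.435 for the epithelial list. Kap, encoding the kidney androgen-regulated protein, had 532 and 488 CPM in the pair numbered 3 and at most 49.5 CPM elsewhere. Dab2, an endocytic adaptor gene that works with megalin, had 296 and 416 CPM in the pair numbered 3 and 55.9 to 203 CPM elsewhere. The kinase gene Wnk1, which controls NCC, had 277 and 326 CPM in the pair numbered 3, below the 413 CPM of Foxp1-deficient 1. S100g, encoding a calcium-binding protein of the distal tubule, had 54.2 and 51.6 CPM in the pair numbered 3 and at most 2.13 CPM elsewhere.

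Among regulators of segment identity, Cux1 and Maf were counted at 63.2 CPM or more and 33.2 CPM or more in all 6 libraries. Cdh16, whose promoter drives Cre, had 48.6 and 48.5 CPM in the pair numbered 3 and 0.297 to 9.23 CPM elsewhere, so the driver's own transcript followed the order of the tubule genes. The keratin gene Krt8 did not, with 227 and 446 CPM in the pair numbered 3 and 195 to 673 CPM in the others. Markers of collecting duct principal cells, a further tubule type, summed to 26.09 and 33.02 CPM in the pair numbered 3. In the others they summed to 0 to 8.256 CPM. All 7 were highest in both, 5 by at least 2-fold, against 21.4% of all genes with a count. Avpr2 among them had only 1 count in each library numbered 3. Of 6 intercalated cell markers, 5 were highest in both. The exception, Slc4a1, also an erythroid marker, had 7.03 and 7.65 CPM there and 120 CPM in Foxp1-deficient 1. Between genotypes, 0 of 33 tested proximal, 0 of 7 thick limb, 0 of 8 distal, 0 of 12 regulator and 0 of 7 epithelial genes were called in either direction by edgeR's quasi-likelihood test. Their median log2 fold changes were 0.08, 0.21, 0.12, 0.08 and 0.37, against 0.03 for all genes tested.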

How the data were processed

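The authors deposited raw counts of read pairs per gene symbol for 6 libraries, made with featureCounts 1.5.1 over exons of mm10 (annotation version 86), with no strand option and no option for reads that map to several genes, per the file headers. The gene lengths are those of the deposited table, per the file headers. The submitters' processing notes also name FastQC, Trimmomatic, STAR, SAMtools, deepTools and DESeq2, without roles. Overlapping genes and near-identical copies can share or lose reads under such counting. Input libraries were not analysed here.

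From the counts, CPM was computed by library total, and TPM from counts and lengths. Genotypes were compared with edgeR 4.0.16 (TMM, its low-count filter, quasi-likelihood test, Benjamini-Hochberg adjustment over all tested genes, threshold 0.05) in R 4.3.3. The same code was tested on data simulated without spread between pairs. These libraries have such spread, so that test does not show how the unblocked fit behaves on them. DESeq2 1.42.0, limma 3.58.1, other scalings and filters, a replicate block and fits without single libraries were alternatives. Libraries of equal number deviated together from their group means (r = 0.535, 0.493 and 0.589 for numbers 1, 2 and 3, across 14311 genes), and the numbers were taken to pair the libraries from these data, not from the labels. The 37 genes and the other lists were chosen with earlier results of these data known. Genes given fold changes between genotypes were those ranked by p, 3 above and 3 below 0. Ratios were given for genes past 2-fold and the 2 of highest CPM in each segment, and up to 4 genes of highest mean CPM were named from the other lists.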

Additional observations from a re-analysis of the deposited data

How the results depend on the processing

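No tubule gene was called between genotypes under any setting run. Over all genes the count was 0 with edgeR and with the replicate block, 6 with DESeq2 and, in fits added after the data were seen, 30 with the libraries numbered 2 left out and a replicate block and 5 with no low-count filter and a replicate block. In the first of these the lowest adjusted p of a tubule gene was 0.0843. The block changed no call for a tubule gene. The count of genes highest in both libraries numbered 3 lay between 33 (2-fold margin) and 37. Of the 37 genes, 0 were past 2-fold in the pair numbered 3 when scaled by TMM, and 5 at a limit of 1.5-fold. The log2 fold change of Slc22a6 turned to 1.26 with limma-voom and to 0.69 with the libraries numbered 2 left out and a replicate block, and that of Pvalb to -0.13 without the libraries numbered 2. Leaving out 1 library at a time gave -3.69 to 0.07 for Slc22a6, -2.96 to 1.04 for Slc7a8, -2.97 to 1.32 for Gatm, -0.77 to 2.3 for Aqp1, 0.61 (without Foxp1-deficient 3) to 1.83 (without control 3) for Lrp2 and 0.41 (without Foxp1-deficient 2) to 6.9 (without control 3) for Pvalb. The causes were not tested. Pvalb could not be fitted without both libraries numbered 3, since too few counts were left. In the 4 libraries with other numbers most thick limb and distal genes lay at or under the floor. Foxp1-deficient 1 had 2066 counts of the 37 genes among 16820360, and control 3 had 27231 among 18206881. The part of depth in these levels was not tested.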
